A study of Homo sapiens with 18 samples.

Results

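The comparison described here sets the RNA that came down with TIAR against the RNA of the whole lysate, in human U251-MG astrocytoma cells under acute arsenite stress. It rests on 6 of the 18 exon arrays of the series: 3 arrays titled Tial Stress (the TIAR RIPs) and 3 titled Input Stress (the inputs), chosen by those titles and not by any measured value. RIP stands for RNA immunoprecipitation, in which an antibody pulls a protein out of a lysate together with the RNA bound to it. Both groups received 500 µM arsenite for 30 min. The groups used beside them are the TIAR RIP and the input from cells given DMSO, the vehicle, for 30 min, and a RIP with an antibody to G3BP1 from arsenite-treated cells, with 3 arrays each. The labels call the 3 arrays of each group biological replicates. All groups come from a single established cell line grown in serum, and no RIP with a control antibody is used here, so RNA that sticks to beads or to antibody cannot be told apart from RNA bound by TIAR.

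TIAR, which is encoded by TIAL1, is an RNA-binding protein with RNA recognition motifs and a prion-like tail. It prefers U-rich and AU-rich stretches, which are common in 3′ untranslated regions, and it is known for silencing the translation of mRNAs that carry them. When arsenite blocks translation initiation, TIAR and its close relative TIA1 gather with stalled mRNAs in stress granules, which G3BP1 and G3BP2 nucleate. In the literature both proteins also hold back mRNAs with a 5′ terminal oligopyrimidine start, the class that contains most ribosomal protein mRNAs.

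The values are log2 signals of 22011 transcript clusters, the array's units of about 1 gene each. Gene statements cover 14232 genes with a single symbol, each through its brightest transcript cluster. A difference is the mean log2 signal of the TIAR RIPs minus that of input, so 1 means a 2-fold higher signal in the RIP. It describes the make-up of the 2 RNA samples and not the amount of RNA recovered. A gene was called where limma's moderated test gave an adjusted p under 0.05 over all transcript clusters. Arrays of lysates average over all cells, so fewer cells with a transcript and less of it per cell cannot be told apart.

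The 3 stressed TIAR RIPs were alike, with median signals of 7.79 to 7.80 and mean correlations with the other arrays of their group of 0.993 to 0.994. The stressed inputs were less so. Input replicate 1 had a median of 7.73 and an upper quartile of 9.175, against 7.90 and 9.54 in replicate 2 and 7.92 and 9.57 in replicate 3. Its mean correlation with the other inputs was 0.980. Results are therefore given with it and, for part of the lists and genes, without it as well. Values given once include it. The mean correlation between the stressed TIAR RIPs and the stressed inputs was 0.949, below the 0.987 between the stressed and unstressed TIAR RIPs.

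Of the 14232 genes, 3476 (24.4%) were higher in the TIAR RIPs than in input and 3259 (22.9%) were lower. Among all transcript clusters the shares were 20.3% and 23.5%. Which direction held more calls followed the scaling. After median centring, 3986 genes were higher and 2687 lower, and after quantile normalization 3951 and 2965. The transcript clusters, 4468 higher and 5178 lower as deposited, were 5154 and 4362 after median centring and 5170 and 4691 after quantile normalization. Larger than 2-fold were 1444 genes in the higher direction (10.1%) and 803 in the lower (5.64%). The 3 arrays of a group lay wholly above those of the other in 3891 genes with higher RIP values (27.3%) and wholly below in 4064 (28.6%). Differences ran from -3.94 to 2.94 around a median of -0.05, with a median standard error (SE) of 0.12.

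With input replicate 1 left out, 3036 genes were higher (21.3%) and 3101 lower (21.8%). Of the calls with all arrays, 2950 higher and 2819 lower ones remained, and 0 turned round. The share of called genes depended on signal. Below a mean signal of 5, 1.54% of genes were higher and 10.3% lower. Between 9 and 10 the shares were 41.7% and 32.4%, and between 11 and 12 they were 50.4% and 28.7%.

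**Figure D1:**
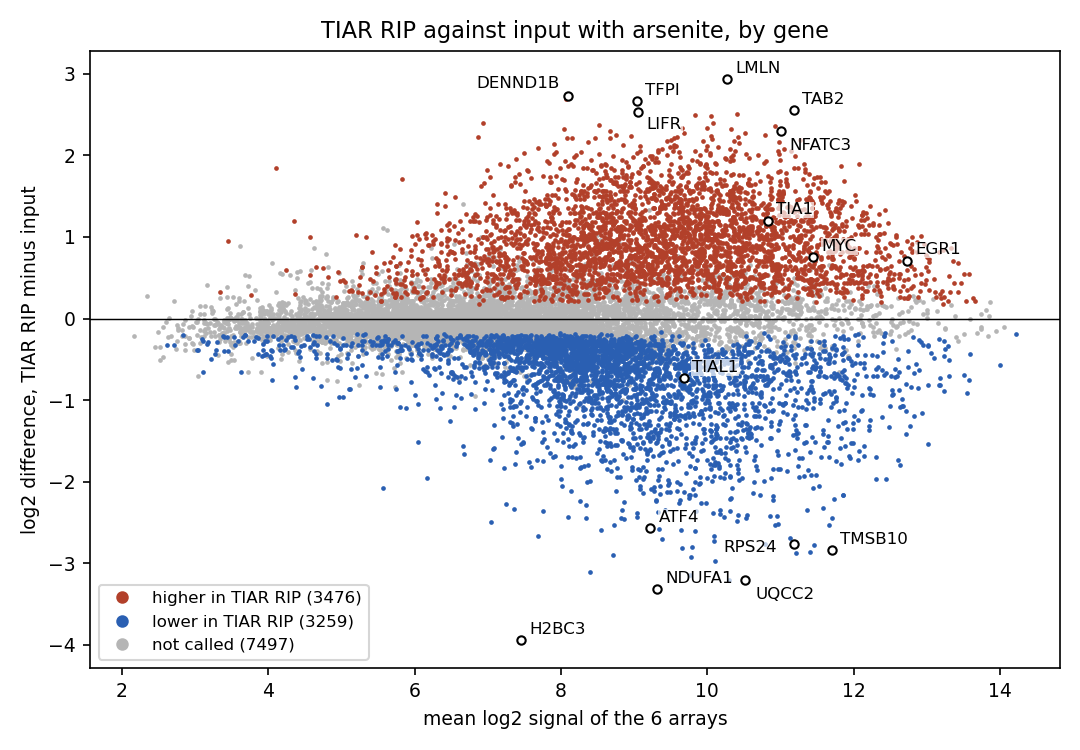
Log2 difference (stressed TIAR RIP minus stressed input) of 14232 genes against the mean log2 signal of the 6 arrays. Red genes were called higher in the TIAR RIP (3476), blue ones lower (3259), and open circles mark genes described in the text, from LMLN at 2.94 to H2BC3 at -3.94.

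The 20 genes with the largest called differences and arrays that did not overlap ran from 2.28 to 2.94. LMLN (transcript cluster 2660029), a leishmanolysin-like metallopeptidase, led with 12.04, 11.49 and 11.69 in the TIAR RIPs, against 8.30, 9.08 and 9.02 in input. The difference of 2.94 (SE 0.20, limma adjusted p = 4.48e-08) is a 7.68-fold higher signal. All 3 RIP arrays lay more than 2 log2 units above the highest input.

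TAB2, an adaptor that links ubiquitin chains to the kinase TAK1, had 12.70, 12.26 and 12.44 in the TIAR RIPs and 9.42, 10.09 and 10.20 in input, a difference of 2.56 (SE 0.18, adjusted p = 5.75e-08). NFATC3, a calcium-regulated transcription factor, had 12.17, 12.08 and 12.21 in the RIPs and 9.58, 9.97 and 10.02 in input. The difference was 2.30 (SE 0.10, adjusted p = 2.8e-09). TFPI, an inhibitor of blood coagulation, had 10.59, 10.07 and 10.45 in the TIAR RIPs and 7.22, 7.89 and 7.98 in input (difference 2.67, SE 0.26, adjusted p = 9.99e-07). In each of these genes the 2 groups stood well apart and input replicate 1 was the lowest array.

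The others had a range of roles. DENND1B (2.73) is an exchange factor for a Rab GTPase, and PGAP1 (2.69) trims the lipid anchor of surface proteins. LIFR (2.53), the receptor for leukaemia inhibitory factor, and LGR5 (2.34), a receptor for R-spondins, act at the cell surface, as does the orphan receptor GPR160 (2.40). ABCD3 (2.5) is a peroxisomal transporter, SGMS2 (2.30) makes sphingomyelin, CASD1 (2.37) acetylates sialic acids, and TLCD4 (2.51) is a membrane protein. RNF111 (2.48) is a ubiquitin ligase of TGF-beta signalling and ANAPC1 (2.40) the scaffold of the anaphase-promoting complex.

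KMT2E (2.36) is a chromatin protein and SP4 (2.34) a GC-box transcription factor. SEC24B (2.33) selects cargo for vesicles that leave the endoplasmic reticulum, DAB2 (2.28) is an endocytic adaptor, and FAM135A (2.33) has no role given here. The largest adjusted p among the 20 was 3.74e-05. Input replicate 1 was the lowest input array in 20 of 20, and without it the differences were 2.00 to 2.69, with a largest adjusted p of 0.000193.

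**Figure D2:**
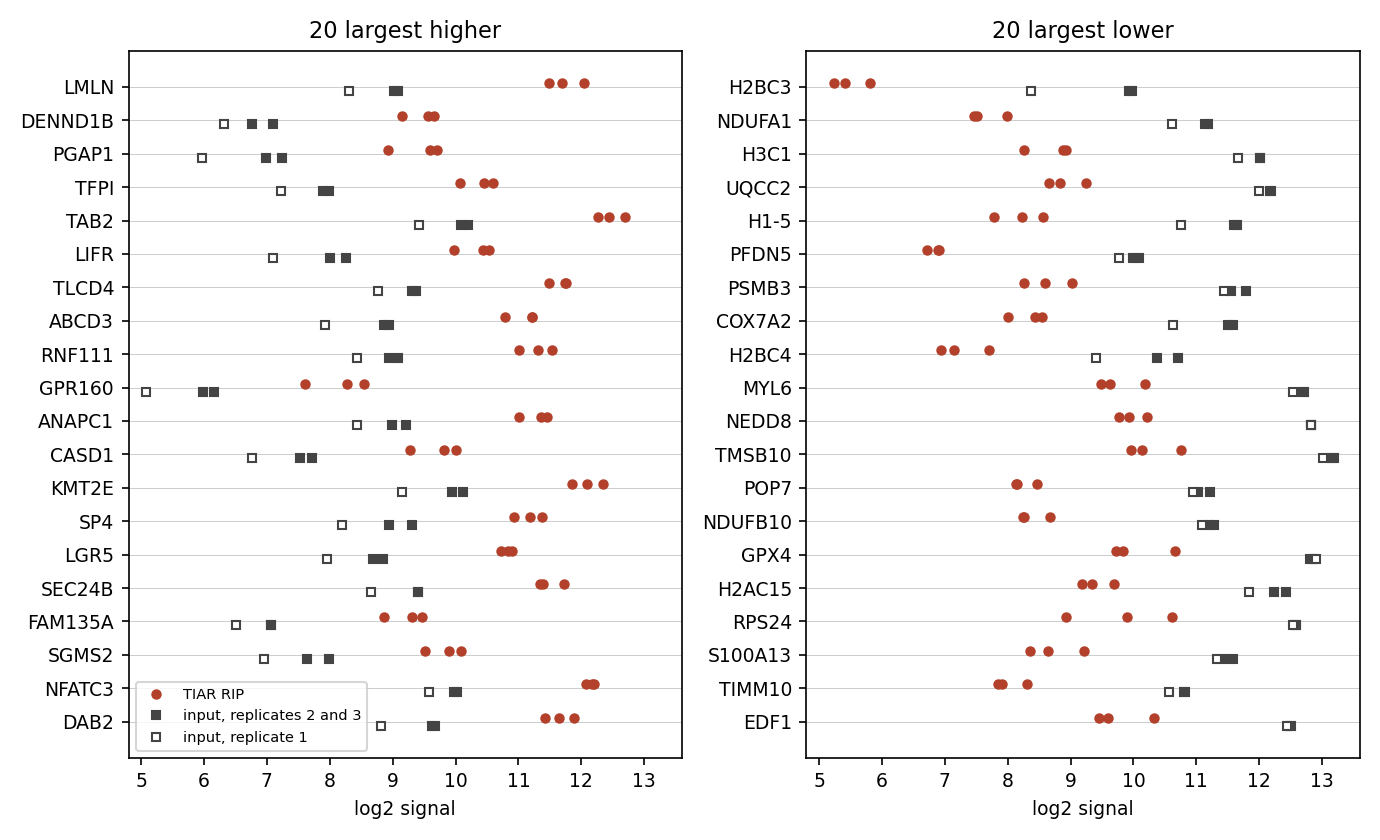
Log2 signal on each array for the 20 genes with the largest higher and the 20 with the largest lower differences. Circles are the 3 stressed TIAR RIPs, squares the 3 stressed inputs, and the open square is input replicate 1. No gene's groups overlap, and the open square is the lowest input in 20 of 20 genes on the left and 18 of 20 on the right.

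Gene lists covering the cell's main machineries were read next. Each was read by how many of its measured members were called in each direction and by its median. Over all genes 24.4% were higher and 22.9% lower, with a median of -0.05. Those shares depend on signal and are not matched to the level of a list. At mean signals between 10 and 11, 49.8% of genes were higher and 27.6% lower, with a median of 0.35. Up to 4 members with the smallest p are named for each list. Other members, where given, were chosen after their values were seen.

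Membrane transporters were mostly enriched. Of 27 solute carriers measured, 24 were higher and 1 lower in the TIAR RIPs, and the median was 1.07. SLC7A1, the cationic amino acid transporter, had 11.38, 11.41 and 11.39 in the RIPs, against 9.89, 10.19 and 10.27 in input (difference 1.28, SE 0.10, adjusted p = 1.53e-07). SLC7A11, the cystine importer that supplies glutathione synthesis, had 13.10, 12.78 and 12.93 in the TIAR RIPs and 11.64, 12.03 and 12 in input (difference 1.05, SE 0.11, adjusted p = 1.67e-06). Neither gene's groups overlapped.

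SLC5A3, which imports inositol, was higher by 1.43, and SLC38A1, a glutamine transporter, by 1.17. The member that was lower was SLC1A5 at -0.47, and SLC4A4 (0.14) and SLC3A2 (0.10) were not called. With input replicate 1 omitted, 22 were higher and 1 lower.

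Ubiquitin ligases and deubiquitinases followed, with 36 of 46 higher, 1 lower and a median of 0.95. Behind RNF111 came UBE3B (1.35, SE 0.11, adjusted p = 1.31e-07), the ligase CBL that marks activated receptors for degradation (1.28), and NEDD4L, a ligase for ion channels (1.45). CBL read 10.78, 10.70 and 10.73 in the TIAR RIPs and 9.13, 9.59 and 9.63 in input. The deubiquitinase USP48 was lower at -0.63. Of the 6 cullin scaffolds among the 46, only CUL4B was called (0.65), and CUL1 (-0.18), CUL2 (0.66), CUL3 (0.13), CUL4A (-0.38) and CUL5 (0.35) were not. Without input replicate 1 the counts were 31 higher and 3 lower.

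Kinase cascade genes gave 21 higher and 3 lower of 33, with a median of 0.68. Without input replicate 1 the counts were 18 and 3 and the median 0.48. MAPK6, an atypical MAP kinase, had 11.62, 11.45 and 11.74 in the TIAR RIPs and 10.48, 10.44 and 10.55 in input, a difference of 1.12 (SE 0.08, adjusted p = 5.72e-08). PRKCA (1.17) and RICTOR, the defining subunit of mTOR complex 2 (1.92), were also higher. The 3 that were lower were HRAS (-0.93), RPS6KA1 (-0.83) and MAPK3 (-0.46).

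The giant cytoskeletal and scaffold proteins, which are encoded by very long reading frames, gave 15 higher and 2 lower of 29 and a median of 0.37. MAP1B (0.82), BIRC6 (2.03) and LRBA (1.70) were higher, and MYH9, the heavy chain of non-muscle myosin, was lower at -0.44 (SE 0.07, adjusted p = 6.11e-05). The other lower member was PLEC at -0.28. With input replicate 1 left out, 12 were higher and 4 lower.

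Coat and vesicle proteins split within single complexes. Of 41 vesicle traffic genes, 29 were higher and 7 lower, and the median was 0.85. Without input replicate 1 the counts were 27 and 8 and the median 0.68. SEC24B, the large cargo adaptor of the COPII coat, had 11.72, 11.35 and 11.39 in the TIAR RIPs, against 8.66, 9.41 and 9.40 in input (difference 2.33). COPE, a small subunit of the COPI coat, had 9.07, 9.40 and 8.93 in the RIPs and 11.45, 11.50 and 11.53 in input, a difference of -2.36 (SE 0.13, adjusted p = 8.73e-09). The groups were wholly apart in both genes, on opposite sides.

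In the same coats, COPA (1.14), ARCN1 (0.97), COPB2 (0.95) and COPB1 (0.35) were higher beside COPE, and SEC13 was lower at -1.80. The clathrin heavy chain CLTC was higher at 1.39 and the light chain CLTA lower at -1.47. AP2B1 (1.12), a subunit of the AP-2 adaptor, and RAB14 (1.23), a GTPase of Golgi and endosome traffic, were higher.

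**Figure D3:**
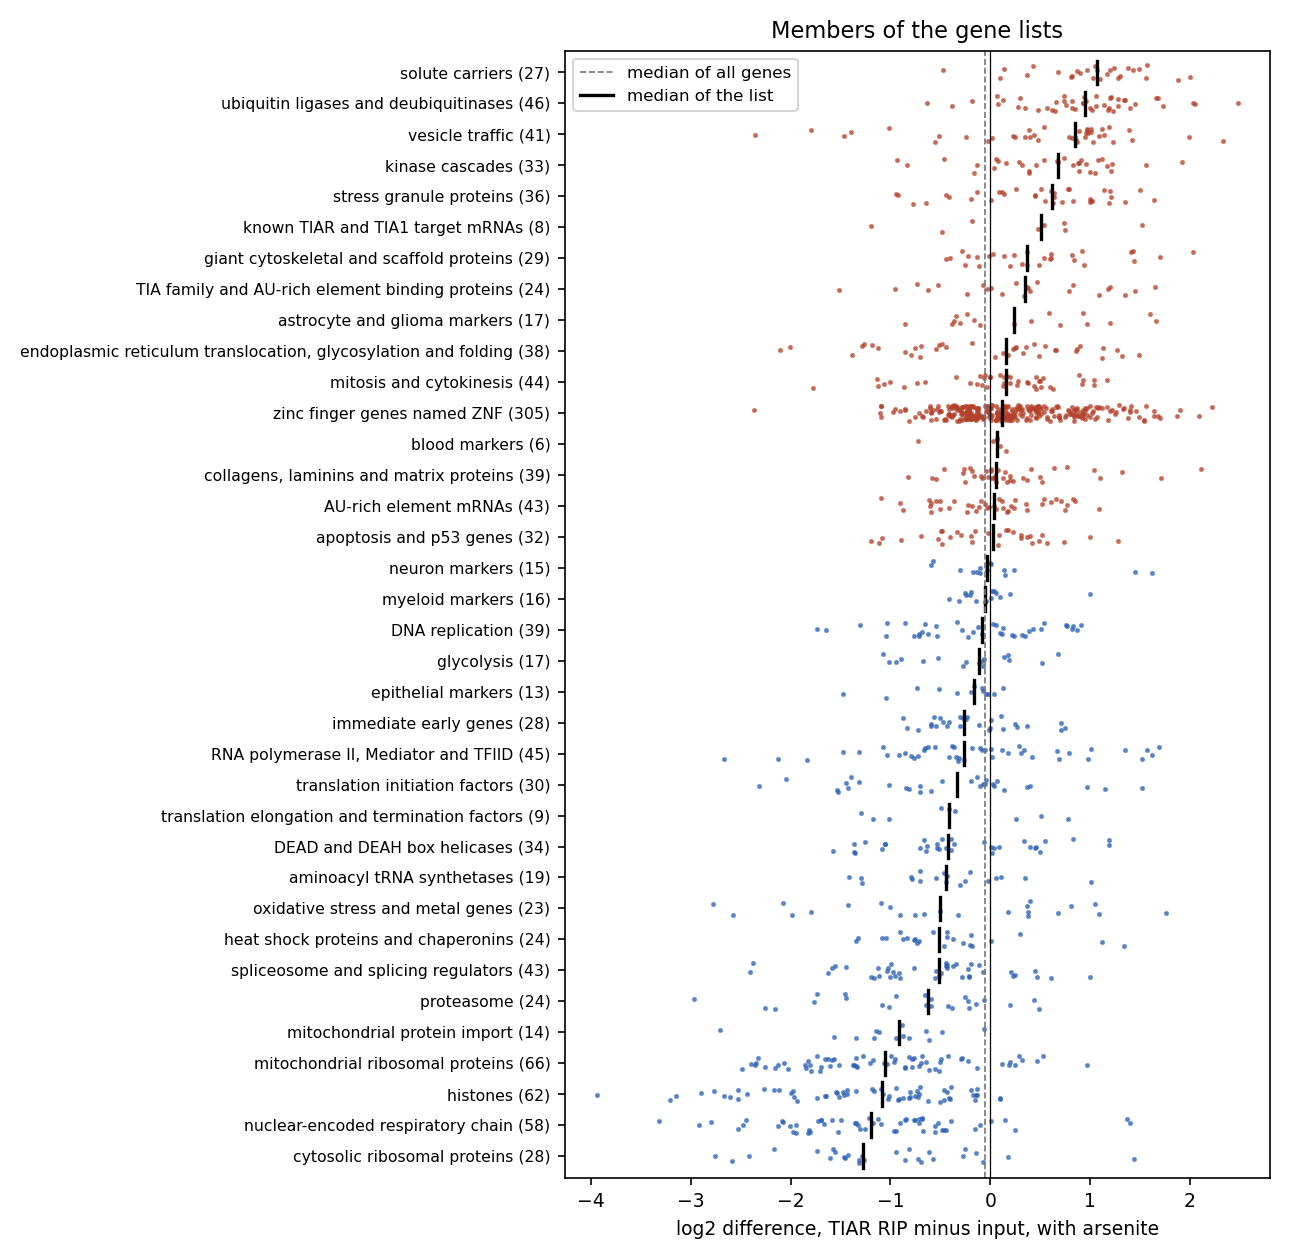
Log2 difference (TIAR RIP minus input, with arsenite) of each measured member of the gene lists with at least 6 members, with the number in brackets. Points are genes, black bars list medians, the dashed line the median of all genes at -0.05. Lists with a median above 0 are red and the others blue, from solute carriers at 1.07 to cytosolic ribosomal proteins at -1.28.

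Many mRNAs of RNA-binding and stress granule proteins had higher signals in the TIAR RIPs than in input, and some had lower ones. TIAL1 itself was lower, with 9.35, 9.26 and 9.33 in the TIAR RIPs and 9.76, 10.21 and 10.16 in input (difference -0.73, SE 0.15, adjusted p = 0.00105). TIA1 was higher, with 11.58, 11.23 and 11.48 in the RIPs and 9.78, 10.57 and 10.33 in input (difference 1.20, SE 0.20, adjusted p = 0.000179). The paralogues thus lay on opposite sides of input, and in neither did the groups overlap.

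G3BP1 had 12.64, 12.45 and 12.77 in the TIAR RIPs and 11.99, 12.30 and 12.23 in input (difference 0.45, SE 0.13, adjusted p = 0.00924), and G3BP2 was higher by 0.78 (SE 0.15, adjusted p = 0.00064). Of 36 stress granule protein genes measured, 23 were higher and 6 lower, with a median of 0.62. ATXN2, a polyglutamine protein that binds poly(A)-binding protein, had 12.47, 12.35 and 12.47 in the RIPs and 10.98, 11.11 and 11.15 in input. Its difference was 1.35 (SE 0.10, adjusted p = 6.13e-08), and those of ATXN2L (1.20), DDX6 (1.19) and UBAP2L (1.00) were similar. The 6 that were lower were TAF15 (-0.94), HNRNPA2B1 (-0.92), CNBP (-0.77), EWSR1 (-0.64), HDAC6 (-0.44) and FXR2 (-0.41).

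Among 24 genes for proteins of the TIA family and other binders of AU-rich elements, 13 were higher and 6 lower (median 0.35). The list's median signals lay between 10 and 11 in both the TIAR RIPs and input. In that range 49.8% of all genes were higher and 27.6% lower, also with a median of 0.35. The list was thus near other genes of its signal. The decay factors ZFP36L1 (1.09) and ZFP36L2 (0.83), the roquin RC3H2 (1.65) and CELF2 (1.18) were higher. ZFP36L1 had 12.71, 12.73 and 12.65 in the TIAR RIPs and 11.47, 11.66 and 11.69 in input. YBX1 was the lowest of the list at -1.52.

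The mRNAs that the literature names as TIAR or TIA1 targets did not all go one way. Of 8 measured, 5 were higher and 2 lower, with a median of 0.51. MYC, the growth-promoting transcription factor, had 11.79, 11.87 and 11.82 in the TIAR RIPs and 10.93, 11.14 and 11.15 in input (difference 0.75, SE 0.08, adjusted p = 3.91e-06). EIF4E, the cap-binding protein, had 8.06, 7.63 and 7.79 in the RIPs and 5.6, 6.46 and 6.85 in input (difference 1.52, SE 0.36, adjusted p = 0.00299). Both were separated from input by every array.

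FAS (0.74, SE 0.19, adjusted p = 0.00447), HIF1A (0.48, SE 0.13, adjusted p = 0.00843) and PTGS2 (0.54, SE 0.09, adjusted p = 0.000168) were also higher, although the signal of PTGS2 was only 5.72 to 6.57. GADD45A, a growth arrest gene, was lower, with 8.06, 8.16 and 7.89 in the TIAR RIPs and 8.92, 9.37 and 9.43 in input (difference -1.20, SE 0.15, adjusted p = 1.01e-05). CYCS, cytochrome c, was lower at -0.48 (SE 0.13, adjusted p = 0.00946), and TNF was not called (-0.18, SE 0.14, adjusted p = 0.322).

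A broader list of mRNAs with AU-rich elements was near the shares over all genes, whatever their signal. Of 43, 13 (30.2%) were higher and 11 (25.6%) lower, with a median of 0.04. The list's median signals were 9.43 in the TIAR RIPs and 9.61 in input. At signals between 9 and 10, 41.7% of all genes were higher and 32.4% lower. ZFP36L1, ZFP36L2 and MYC were the higher members with the smallest p. HMOX1, haem oxygenase, was lower at -0.90 (SE 0.11, adjusted p = 9.88e-06), and the chemokine CXCL8 was lower still at -1.09. Immediate early genes leaned to the lower side, with 5 of 28 higher and 15 lower (median -0.26). JUNB (-0.87) and JUND (-0.72) were lower, and EGR1, described below with the arsenite response, was higher at 0.71. Omitting input replicate 1 gave 4 higher and 11 lower immediate early genes.

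The genes at the other end were read by the same rule. The 20 largest lower differences with arrays that did not overlap ran from -3.94 to -2.69, and the largest adjusted p was 0.000168. H2BC3 (transcript cluster 2946225), a histone H2B gene, had 5.81, 5.41 and 5.23 in the TIAR RIPs, against 8.37, 9.98 and 9.93 in input. The difference of -3.94 (SE 0.59, adjusted p = 5.51e-05) is a 15.4-fold higher signal in input. Every RIP array lay below every input array. Input replicate 1 was the lowest input, and without it the difference was -4.47.

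NDUFA1, a small membrane subunit of respiratory complex I, had 7.51, 7.99 and 7.46 in the TIAR RIPs and 10.61, 11.19 and 11.14 in input (difference -3.32, SE 0.27, adjusted p = 1.81e-07). UQCC2, an assembly factor of complex III, had 8.84, 9.24 and 8.66 in the RIPs and 12, 12.19 and 12.18 in input (difference -3.21, SE 0.23, adjusted p = 6.05e-08). TMSB10, the actin-binding thymosin beta-10, had 10.14, 10.75 and 9.96 in the RIPs and 13.02, 13.19 and 13.16 in input (difference -2.84, SE 0.16, adjusted p = 8.95e-09). In all 3 every RIP array lay more than 2 log2 units below every input array.

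Of the others, H3C1 (-3.21), H1-5 (-3.15), H2BC4 (-2.90) and H2AC15 (-2.77) are histones. COX7A2 (-2.92) and NDUFB10 (-2.80) belong to the respiratory chain, TIMM10 (-2.71) is a chaperone of mitochondrial import, and GPX4 (-2.78) removes lipid peroxides. PFDN5 (-3.11) is a prefoldin chaperone, PSMB3 (-2.97) a proteasome core subunit, NEDD8 (-2.86) a ubiquitin-like modifier, RPS24 (-2.76) a ribosomal protein and POP7 (-2.81) a subunit of RNase P. MYL6 (-2.88) is a myosin light chain, S100A13 (-2.73) a calcium-binding protein and EDF1 (-2.69) a transcriptional coactivator. Without input replicate 1 the 20 differences were -4.47 to -2.71.

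Histones, whose main mRNAs end in a stem-loop in place of a poly(A) tail, were mostly depleted. Of 62 histone genes measured, 52 were lower and 0 higher (the lower share over all genes being 22.9%), and the median was -1.08. H3C10 had 9.62, 10.15 and 9.2 in the TIAR RIPs and 12.09, 12.26 and 12.21 in input (difference -2.53, SE 0.19, adjusted p = 7.9e-08). H2BC17 (-1.66) and H2AC11 (-1.55) were also lower. Histone genes are near copies of each other, so probes may share signal and single members are uncertain.

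Mitochondrial machinery was mostly depleted. Of 58 nuclear-encoded respiratory chain genes, 49 were lower and 1 higher, with a median of -1.20. NDUFS8 had 9.34, 9.17 and 9.24 in the TIAR RIPs and 11.06, 11.01 and 11.15 in input (difference -1.83, SE 0.09, adjusted p = 4e-09), and ATP5F1D (-1.95) and NDUFA2 (-1.53) followed. The exception was SDHC, a membrane anchor of complex II, at 1.37, a call that was lost without input replicate 1 and also without TIAR RIP replicate 1 or 3.

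Of 66 mitochondrial ribosomal protein genes, 50 were lower and 1 higher (median -1.05). MRPL46 had 8.83, 9.01 and 9.06 in the TIAR RIPs and 11.22, 11.39 and 11.50 in input, a difference of -2.40 (SE 0.09, adjusted p = 1.71e-09). MRPS34 (-2.26), MRPL2 (-2.13) and MRPL11 (-1.86) behaved likewise, and the exception was MRPL35 at 0.97. Of 14 genes of mitochondrial protein import, 12 were lower and 0 higher (median -0.91), TIMM8B (-1.57), TIMM50 (-1.12) and TOMM40 (-0.64) among them.

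Proteasome genes gave 17 lower and 2 higher of 24, with a median of -0.62. PSMC3, an ATPase of the regulatory particle, had 8.79, 8.95 and 8.81 in the TIAR RIPs and 10.94, 11.09 and 11.31 in input (difference -2.26, SE 0.12, adjusted p = 5.48e-09). PSMA7 (-1.74) and PSMD6 (-1.45) were lower too, and PSMD12 (0.49) and PSMD11 (0.44) were the higher ones. Only 1 was higher without any single TIAR RIP replicate or without input replicate 1. Of 24 heat shock and chaperonin genes, 15 were lower and 2 higher (median -0.51). The cytosolic chaperonin subunits CCT3 (-0.83) and CCT4 (-1.33), the co-chaperone DNAJA1 (-1.08) and HSPB1 (-0.75) were lower, whereas HSPA13 (1.34) and HSPA4L (1.12) were higher.

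Cytosolic ribosomal protein mRNAs are the classic 5′ terminal oligopyrimidine class, and the beginnings of 6 of them are printed here because this start is the element through which TIAR and TIA1 are known to act on them. Each sequence runs from 12 bases before to 18 bases after the RefSeq start of the gene on GRCh38.p14, on the gene's strand. The first CTTTC is in capitals. In none of the 6 does it begin at the RefSeq start itself, so the capitals do not mark the terminal element.
RPL35 (chr9:124861940-124861969, minus strand): cccgcctacttcctCTTTCcctcggagcgg
RPS14 (chr5:150449722-150449751, minus strand): ccccctcccactctctCTTTCcggtgtgga
RPL9 (chr4:39458905-39458934, minus strand): cgtaatgacgacagacgttCTTTCtttgct
RPL36AL (chr14:49620609-49620638, minus strand): tttcttccCTTTCctgttaggcgagagctg
RPL28 (chr19:55385920-55385949, plus strand): cccctcgccttcctCTTTCcgtctcaggtc
RPL41 (chr12:56116621-56116650, plus strand): aacttcgcCTTTCtctcggccttagcgcca

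CTTTC was found on the gene's strand in 13 of 26 ribosomal protein windows and on the other strand in 0. In all 27305 RefSeq windows of this length the shares were 4.11% and 3.18%, among 11386 measured genes 3.87% and 2.45%. Of the genes with a window, the 1203 more than 2-fold higher in the TIAR RIPs had 3.82% and the 687 more than 2-fold lower 4.95% on the gene's strand. The letters are a description of the windows and not of binding.

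Of 81 cytosolic ribosomal protein genes listed, only 28 had a transcript cluster with a single symbol, so the values cover a part of the family. Of these 28, 21 were lower in the TIAR RIPs and 1 higher, with a median of -1.28. RPS25 had 10.62, 10.95 and 10.74 in the RIPs, against 12.85, 12.97 and 13.01 in input (difference -2.17, SE 0.18, adjusted p = 1.82e-07). RPL36AL, whose start is printed above, had 9.97, 10.38 and 10.28 in the RIPs and 11.54, 11.49 and 11.57 in input (difference -1.32, SE 0.10, adjusted p = 7.16e-08). RPL14 (-1.58) and RPL35A (-1.46) were similar, and no array of these 4 genes overlapped between the groups.

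The genes with printed starts did not all go one way. RPL35 (-1.74, SE 0.28, adjusted p = 0.000116), RPS14 (-1.61, SE 0.17, adjusted p = 1.6e-06) and RPL9 (-1.47, SE 0.20, adjusted p = 2.96e-05) were lower, RPL28 was not called (0.18, SE 0.22, adjusted p = 0.554) and RPL41 was higher (1.44, SE 0.46, adjusted p = 0.0186). The call of RPL41 was lost without TIAR RIP replicate 3 or without input replicate 1. Of the 13 genes with the motif 9 were lower and 1 higher, and of the 13 without it 10 were lower. Ribosomal protein genes have many processed pseudogenes, so shared probe signal cannot be told apart for single members.

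Translation factors were mostly lower as well. Of 30 initiation factor genes, 14 were lower and 5 higher (median -0.33), and the 4 with the smallest p were subunits of eIF3, the scaffold of the initiation complex. EIF3K had 10.32, 10.63 and 10.31 in the TIAR RIPs and 12.74, 12.76 and 12.73 in input (difference -2.32, SE 0.19, adjusted p = 1.58e-07), and EIF3G (-2.05), EIF3D (-1.40) and EIF3I (-1.32) were lower too. The 5 that were higher were EIF4E, EIF1B (1.15), EIF2A (0.97), EIF4EBP2 (0.40) and EIF2S1 (0.37).

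Of 9 elongation and termination factors, 6 were lower and 2 higher, among them TUFM (-1.30), EEF1A2 (-1.18) and EIF5A (-1.01) on the lower side and EEF2K, the kinase that slows elongation, at 0.51 on the other. The higher count was 1 without TIAR RIP replicate 1 or 3, without input replicate 1, and with the compared groups alone in the fit. Of 19 aminoacyl tRNA synthetases, 12 were lower and 2 higher (median -0.44). FARSA (-1.42), SARS1 (-1.30) and MARS1 (-0.70) were lower, whereas IARS1 had 11.72, 11.68 and 11.89 in the RIPs and 10.47, 10.85 and 10.95 in input, a difference of 1.01 (SE 0.14, adjusted p = 2.26e-05).

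Nuclear machines held members on both sides. Of 45 genes of RNA polymerase II, Mediator and TFIID, 13 were higher and 19 lower, with a median of -0.26. POLR2L, the smallest polymerase subunit, had 8.53, 9.10 and 8.62 in the TIAR RIPs and 11.41, 11.45 and 11.42 in input (difference -2.67, SE 0.16, adjusted p = 1.48e-08), and POLR2E was lower at -1.84. The 2 large polymerase subunits were higher, POLR2A at 0.67 and POLR2B at 0.79. MED14, the backbone of Mediator, had 12.23, 12.09 and 12.25 in the RIPs and 10.39, 10.70 and 10.77 in input (difference 1.57, SE 0.09, adjusted p = 1.16e-08), and MED13L was higher at 1.52.

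The spliceosome list gave 24 lower and 6 higher of 43 (median -0.51), or 30 and 4 without input replicate 1 (median -0.66). SNRPC, a small protein of the U1 particle, had 8.90, 8.90 and 8.85 in the TIAR RIPs and 11.04, 11.49 and 11.27 in input, a difference of -2.38 (SE 0.14, adjusted p = 1.5e-08). PRPF31 (-1.59) and PRPF19 (-0.99) were lower. PRPF8, the large core protein of the spliceosome, was higher at 1.00 (SE 0.08, adjusted p = 1.27e-07).

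Of 34 DEAD and DEAH box helicases, 18 were lower and 7 higher (median -0.42). DDX39A (-1.58), DDX49 (-1.37) and DDX23 (-1.05) were lower beside DDX6 on the other side. Among 305 zinc finger genes named ZNF, 99 (32.5%) were higher and 52 (17.0%) lower, with a median of 0.12. Over all genes the shares were 24.4% and 22.9%. The list's median signals lay between 7 and 8 in both the TIAR RIPs and input. In that range 14.7% of all genes were higher and 20.6% lower, with a median of -0.1. The higher share of the list was thus above that of genes in this range. ZNF827 (1.54), ZNF462 (1.41) and ZNF384 (1.17) were higher, and ZNF593 was lower at -2.37.

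Endoplasmic reticulum genes went both ways, with 14 higher and 16 lower of 38 (median 0.16). Without input replicate 1 the counts were 10 and 17 (median 0.04). STT3B, a catalytic subunit of oligosaccharyltransferase, had 12.85, 12.62 and 12.77 in the TIAR RIPs and 11.20, 11.65 and 11.56 in input (difference 1.27, SE 0.12, adjusted p = 5.33e-07). SSR4, a small translocon-associated subunit, had 9.59, 10.04 and 9.25 in the RIPs and 11.60, 11.61 and 11.71 in input (difference -2.01, SE 0.20, adjusted p = 9.29e-07). SRP19, of the signal recognition particle (-1.29), and the stress-induced secreted factor MANF (-1.19) were lower.

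Antioxidant and metal genes parted in a similar way, with 8 of 23 higher and 13 lower (median -0.50). SOD1 had 9.78, 9.92 and 9.63 in the TIAR RIPs and 11.64, 11.83 and 11.82 in input (difference -1.99, SE 0.13, adjusted p = 2.48e-08). GSTP1 (-1.80), GPX4 and the metallothionein MT1G (-2.08) were lower, MT1G at signals of 4.43 to 6.72. The enzymes of glutathione synthesis GCLC (1.76) and GCLM (1.09) were higher, together with SLC7A11.

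ECT2 and AURKB, the genes in the title of the study, differed from each other. ECT2, an activator of the GTPase RhoA in cytokinesis, had 10.68, 10.06 and 10.55 in the TIAR RIPs and 9.77, 10.56 and 10.52 in input (difference 0.14, SE 0.25, adjusted p = 0.675), and the arrays overlapped. AURKB, a mitotic kinase, had 11.67, 11.96 and 11.77 in the RIPs and 12.66, 12.62 and 12.71 in input, and was lower by every array (difference -0.86, SE 0.08, adjusted p = 8.45e-07).

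Of 44 genes of mitosis and cytokinesis, 11 were higher and 8 lower (median 0.16), PTTG1 (-1.78), SPC24 (-1.14) and TPX2 (-1.0) among the lower. Without TIAR RIP replicate 3 the higher count was 7, and after median centring or quantile normalization it was 18 or 19. Of 39 DNA replication genes, 9 were higher and 15 lower (median -0.08), with RFC2 (-1.74), RFC4 (-1.65), MCM5 (-1.03) and CDT1 (-0.85) lower. The higher count fell to 5 without TIAR RIP replicate 1, TIAR RIP replicate 3 or input replicate 1.

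Glycolysis genes gave 2 higher and 6 lower of 17 (median -0.11), with PFKL (-1.01), PFKP (-0.94) and ENO1 (-0.89) lower and the glucose transporter SLC2A1 higher at 0.68. Apoptosis and p53 genes gave 8 higher and 9 lower of 32 (median 0.03, or -0.16 without input replicate 1). BAD (-1.12), FADD (-0.89) and BID (-0.48) were lower, and FAS was higher. Matrix genes gave 11 higher (28.2%) and 7 lower (17.9%) of 39 (median 0.06), or 17 and 6 after median centring. The matrix protein ABI3BP had 10.87, 10.51 and 10.52 in the TIAR RIPs and 8.03, 8.79 and 8.74 in input (difference 2.11, SE 0.21, adjusted p = 9.98e-07), VCAN and NID1 were higher at 1.71 and 1.04, and FBLN1 was lower at -0.82.

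The labelled cell type was checked against marker genes. The astrocyte and glioma markers VIM (12.9 in the TIAR RIPs and 13.2 in input), SOX9 (11.3 and 10.3), NFIB (12.96 and 12.03) and EGFR (11.4 and 9.73) had high signals, GFAP read 8.0 and 8.36, and S100B (4.60 and 4.83) and AQP4 (4.75 and 5.05) were near the low end. Of 17 such markers 8 were higher and 5 lower, with differences from -0.85 to 1.66 and a median of 0.24. SOX9 (0.97), EGFR (1.66), NFIA (1.6) and NFIB (0.93) were on the higher side. The 5 lower ones are not given by name.

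Markers of other cell types were read the same way. The median signal was 7.83 in the TIAR RIPs and 8.33 in input over 13 epithelial markers, 7.15 in both over 15 neuron markers, 6.21 and 6.28 over 16 myeloid markers, and 6.25 and 6.18 over 6 blood markers. Over the 17 astrocyte and glioma markers it was 8.98 and 8.46. Signals of different probes are not comparable as levels, so these medians do not rank the cell types. PTPRC, which defines leukocytes, read 3.58 in the TIAR RIPs and 3.77 in input, and EPCAM, which defines epithelium, 3.31 and 3.39. Of the myeloid markers 1 was higher, the lysosomal CD68 (1.00), and 2 lower, CD14 (-0.41) and PTPRC (-0.20). The call of PTPRC was lost under most alternatives, with a difference of 0.02 after quantile normalization, and the call of CD14 was lost without TIAR RIP replicate 3.

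Of 15 neuron markers 2 were higher, SYT1 (1.62) and MAP2 (1.45), and 3 lower, GAP43 (-0.59), GAD1 (-0.57) and NEFM (-0.30). Of 13 epithelial markers 0 were higher and 5 lower, KRT18 (-1.48), KRT8 (-1.04), KRT19 (-0.73) and CLDN3 (-0.51) with the smallest p. Of the blood markers CD3E was lower (-0.72, at signals under 6), and PPBP (0.16), ALAS2 (0.07) and CD3D (0.10) were not called. Their part in the other results was not tested. The nuclear RNA MALAT1 was not called (-0.65, SE 0.29, adjusted p = 0.0901), but it was called lower with the compared groups alone, with array weights (-0.68), after cyclic loess (-0.74) and, in a fit chosen after seeing the data, without both input replicate 1 and the unstressed G3BP1 RIP replicate 3 (-0.73).

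The enrichment was then set beside that in cells without arsenite, where the same antibody and lysate fractions were compared. The 2 differences share no arrays, and over the 14232 genes they had a Pearson correlation of 0.922 and a Spearman correlation of 0.874, given as a description since genes are not independent. Without arsenite 2873 genes (20.2%) were higher in the TIAR RIPs and 3335 (23.4%) lower. In both states 2616 were higher, which is 75.3% of the stressed and 91.1% of the unstressed list, and 2613 were lower, 80.2% and 78.4%. Only 5 genes were higher with arsenite and lower without, and 3 the reverse.

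All 20 of the most enriched and all 20 of the most depleted genes described above were called in the same direction without arsenite, LMLN at 2.56 and H2BC3 at -4.0 for instance. Solute carriers had 22 higher and 1 lower without arsenite (median 0.72), histones 0 and 50 (median -1.27), and respiratory chain genes 0 and 51 (median -1.66).

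The test of the difference between the 2 states, the arsenite enrichment minus the enrichment without it, called 80 genes as larger with arsenite (0.562%) and 6 as smaller (0.0422%). Of the 80, 66 were depleted in the TIAR RIPs without arsenite and 59 were still depleted with it, and 16 were enriched with it. In 65 of the 80 the RIP signal itself rose with arsenite, and in 26 the input signal fell. The 80 were chosen on a contrast of these same arrays. That choice favours RIP rises, input falls and depletion without arsenite, so the counts within the 80 are a description only. Over all genes 6.15% rose and 7.15% fell in the TIAR RIPs with arsenite, and 2.08% rose and 13.5% fell in input. These counts depend on the processing. Over transcript clusters 133 were larger and 11 smaller, 92.4% larger, whereas the split was 151 and 40 after median centring, which moves the median of all genes by -0.11, 176 and 63 after quantile normalization, which moves it by -0.1, and 47 and 16 without input replicate 1.

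DNAJC7, a co-chaperone of HSP70 and HSP90, had 9.27, 9.31 and 9.44 in the TIAR RIPs with arsenite and 8.44, 8.19 and 8.18 in those without. Its input arrays were 10.16, 10.47 and 10.44 with arsenite and 10.46, 10.45 and 10.46 without. The RIP arrays were wholly apart between the states, the inputs were not, and the difference of enrichments was 1.17 (SE 0.14, limma adjusted p = 0.00227).

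AATF, a ribosome biogenesis and transcription factor, had 8.91, 8.87 and 8.95 in the TIAR RIPs with arsenite and 8.03, 7.97 and 7.81 without, with input at 10.63 to 10.82 with and 10.85 to 10.96 without (difference of enrichments 1.15, SE 0.13, adjusted p = 0.00227). PSME1, a proteasome activator subunit, had 10.71, 10.77 and 10.59 with arsenite and 9.76, 9.39 and 9.57 without (1.00, SE 0.14, adjusted p = 0.00655). In PACSIN3, an endocytic adaptor, both sides moved. Its RIP arrays were 8.78 to 8.95 with arsenite and 8.45 to 8.62 without, and its input arrays 9.34 to 9.63 and 10.17 to 10.28 (1.06, SE 0.14, adjusted p = 0.00587). These 4 calls held under all 22 alternatives tried for each.

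EXOSC9 (1.23, adjusted p = 0.0196), an exosome subunit, S100A13 (1.18, adjusted p = 0.0441), IMPDH2 (1.15, adjusted p = 0.0315), an enzyme of guanine nucleotide synthesis, and DYNC1H1 (0.97, adjusted p = 0.0302), the dynein heavy chain, were larger too but were lost under 6, 16, 8 and 9 of 22 alternatives. DYNC1H1 changed side, with a difference from input of 0.49 (SE 0.12, adjusted p = 0.00451) with arsenite and of -0.48 (SE 0.12, adjusted p = 0.00571) without. Aminoacyl tRNA synthetases held 4 of the calls among 19 genes, with FARSA (0.51), SARS1 (0.93), QARS1 (0.67) and WARS1 (0.63) all larger with arsenite.

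ATF4, a transcription factor whose translation increases when initiation is blocked, showed the largest opposite change. It had 7.87, 8.09 and 7.83 in the TIAR RIPs with arsenite and 7.46, 7.16 and 7.38 without, while its input was 10.41, 10.43 and 10.68 with arsenite and 8.39, 8.49 and 8.29 without. Input rose by 2.12 (SE 0.12, adjusted p = 2.97e-07) and the RIP by 0.60 (SE 0.12, adjusted p = 0.0035), so that its depletion grew to -2.57 with arsenite, against -1.05 without. The difference of -1.52 (SE 0.17, adjusted p = 0.00227) held under all 22 alternatives.

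EGR1, an immediate early transcription factor, rose more in both fractions. Its TIAR RIP arrays were 13.21, 13.02 and 13.02 with arsenite and 10.05, 10.12 and 10.04 without, and its input arrays 12.19, 12.45 and 12.47 with arsenite and 8.67, 8.56 and 8.53 without. It was enriched by 0.71 with arsenite and by 1.49 without, a difference of -0.77 (SE 0.13, adjusted p = 0.0193), lost under 3 of 22 alternatives.

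ANKRD49, an ankyrin repeat protein, had 9.02, 8.74 and 9.31 in the TIAR RIPs with arsenite and 10.41, 9.99 and 9.88 without, and PBDC1 had 8.94, 8.83 and 9.17 with arsenite and 9.88, 9.81 and 9.99 without. Their differences of enrichment were -1.30 (SE 0.22, adjusted p = 0.0204) and -0.87 (SE 0.15, adjusted p = 0.0204), lost under 4 and 7 of 22 alternatives. The other 2 of the 6 genes smaller with arsenite, chosen after their values were seen, were RFTN2 (-0.65) and ZBTB7C-AS2 (-1.03). How these 2 fared under the alternatives is not given.

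**Figure D4:**
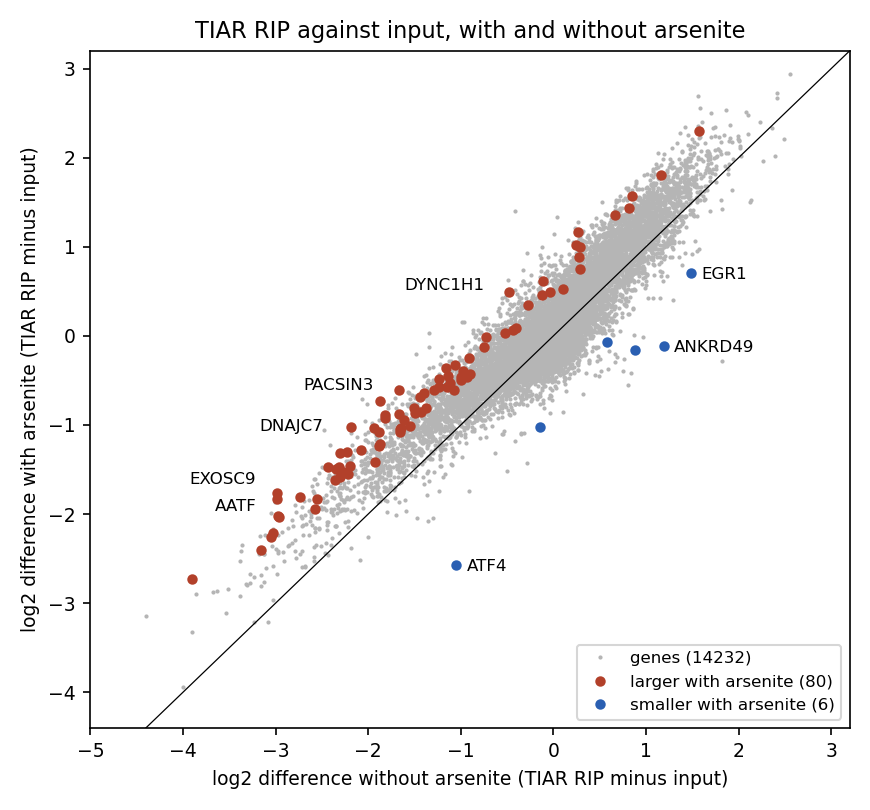
Log2 difference between TIAR RIP and input with arsenite (vertical) against that without (horizontal) for 14232 genes, with equal values on the diagonal line. Red genes had a larger difference with arsenite (80) and blue ones a smaller (6). Most red genes lie below 0 on both axes, and ATF4 stands alone at -2.57 and -1.05.

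The TIAR RIPs were also set against RIPs of a second stress granule protein, G3BP1, from the same arsenite-treated state. The direct test of TIAR RIP against G3BP1 RIP called 2044 genes higher with TIAR (14.4%) and 4618 lower (32.4%). The G3BP1 RIPs had the higher array medians, and this split followed the scaling. After median centring, which moves the median of all genes by 0.23, 3768 were higher and 3704 lower, after quantile normalization 3071 and 3871, and after cyclic loess 3272 and 3927. Over transcript clusters 3440 were higher and 6312 lower, or 6084 and 5070 after median centring. The TIAR and G3BP1 differences from input share the 3 input arrays, so they are given side by side only. Against input 35.3% of genes were higher and 9.9% lower with G3BP1.

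TFPI had 10.59, 10.07 and 10.45 in the TIAR RIPs and 7.77, 7.64 and 7.58 in the G3BP1 RIPs (difference 2.71, SE 0.26, adjusted p = 4.82e-07). Against input it was 2.67 with TIAR and -0.04 with G3BP1. LYPLA1, a thioesterase that removes palmitate from proteins, had 9.79, 9.97 and 9.84 with TIAR and 6.98, 6.18 and 6.32 with G3BP1, the largest difference (3.37, SE 0.40, adjusted p = 4.82e-06). Neither gene's arrays overlapped.

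TLCD4 (2.90), the thrombin receptor family member F2RL2 (2.63), NREP (2.51), GMFB (2.49) and GPR160 (2.42) were also higher with TIAR. RAP1B had 7.04, 6.98 and 7.49 with TIAR and 5.38, 3.03 and 5.73 with G3BP1 (2.46, SE 0.72, adjusted p = 0.0112). G3BP1 replicate 2 decided much of its size, and without it the call was lost (1.62, adjusted p = 0.0698).

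In the other direction, NSMCE1, a subunit of the SMC5/6 complex, had 7.54, 7.67 and 7.58 in the TIAR RIPs and 11.06, 11.07 and 10.64 in the G3BP1 RIPs (difference -3.33, SE 0.31, adjusted p = 3.26e-07). Against input it was -2.45 with TIAR and 0.87 with G3BP1. DHPS, which makes the hypusine of eIF5A, had 10.15, 10.13 and 9.95 with TIAR and 13.04, 13.06 and 13.02 with G3BP1 (-2.97, SE 0.14, adjusted p = 4.6e-10). Both were on opposite sides of input in the 2 RIPs.

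PICK1 (-3.04), SNUPN (-3.29), B3GAT3 (-2.97), NDUFB7 (-3.31) and PSMC3 (-3.21) showed the same order, being lower than input with TIAR and higher with G3BP1. UQCC2 (-3.15) was lower than input with TIAR and near it with G3BP1 (-0.06, adjusted p = 0.868).

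By list, vesicle traffic genes stood above G3BP1 with TIAR in 27 of 41 and below in 8. The list's median of 0.66 in the direct comparison remained above 0 under the 3 scalings (0.85 to 0.90). Solute carriers had 15 above and 3 below of 27 (median 0.49, and 0.72 to 0.78 under the scalings). The giant cytoskeletal and scaffold genes went the other way, with 1 above and 21 below of 29 and a median of -1.06 (-0.88 to -0.82). Aminoacyl tRNA synthetases (1 above and 16 below of 19, median -1.26), DEAD and DEAH box helicases (4 and 24 of 34, median -1.27), the proteasome (1 and 18 of 24, median -0.97) and matrix genes (3 and 27 of 39, median -0.67) were also lower with TIAR, and these medians too kept their sign under the scalings.

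Histones differed less, with 3 above and 19 below of 62, a median of -0.26 and medians between -0.12 and -0.03 under the scalings. Against input their medians were -1.08 with TIAR and -1.09 with G3BP1. Kinase cascade genes had a median of -0.13 in the direct comparison that turned positive under the 3 scalings (0.06 to 0.10), and ZNF genes -0.12, which was 0.10 after median centring.

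Stress granule proteins had 15 above and 12 below of 36 (median 0.23), and 20 or 21 above and 9 or 10 below under the 3 scalings (medians 0.41 to 0.45), G3BP2 among those above (1.18, SE 0.15, adjusted p = 1.03e-05). TIA1 was 1.29 higher with TIAR than with G3BP1 (SE 0.20, adjusted p = 7.43e-05). Of the 8 known targets, 3 were above G3BP1 and 1 below (median 0.34). Under each of the 3 scalings 6 were above and 1 below (medians 0.40 to 0.56). As deposited, EIF4E (1.88, adjusted p = 0.000462), HIF1A (0.62, adjusted p = 0.00108) and PTGS2 (0.43, adjusted p = 0.00109) were above. GADD45A was below (-1.38, adjusted p = 1.69e-06), and MYC was not called (0.15, adjusted p = 0.187).

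**Figure D5:**
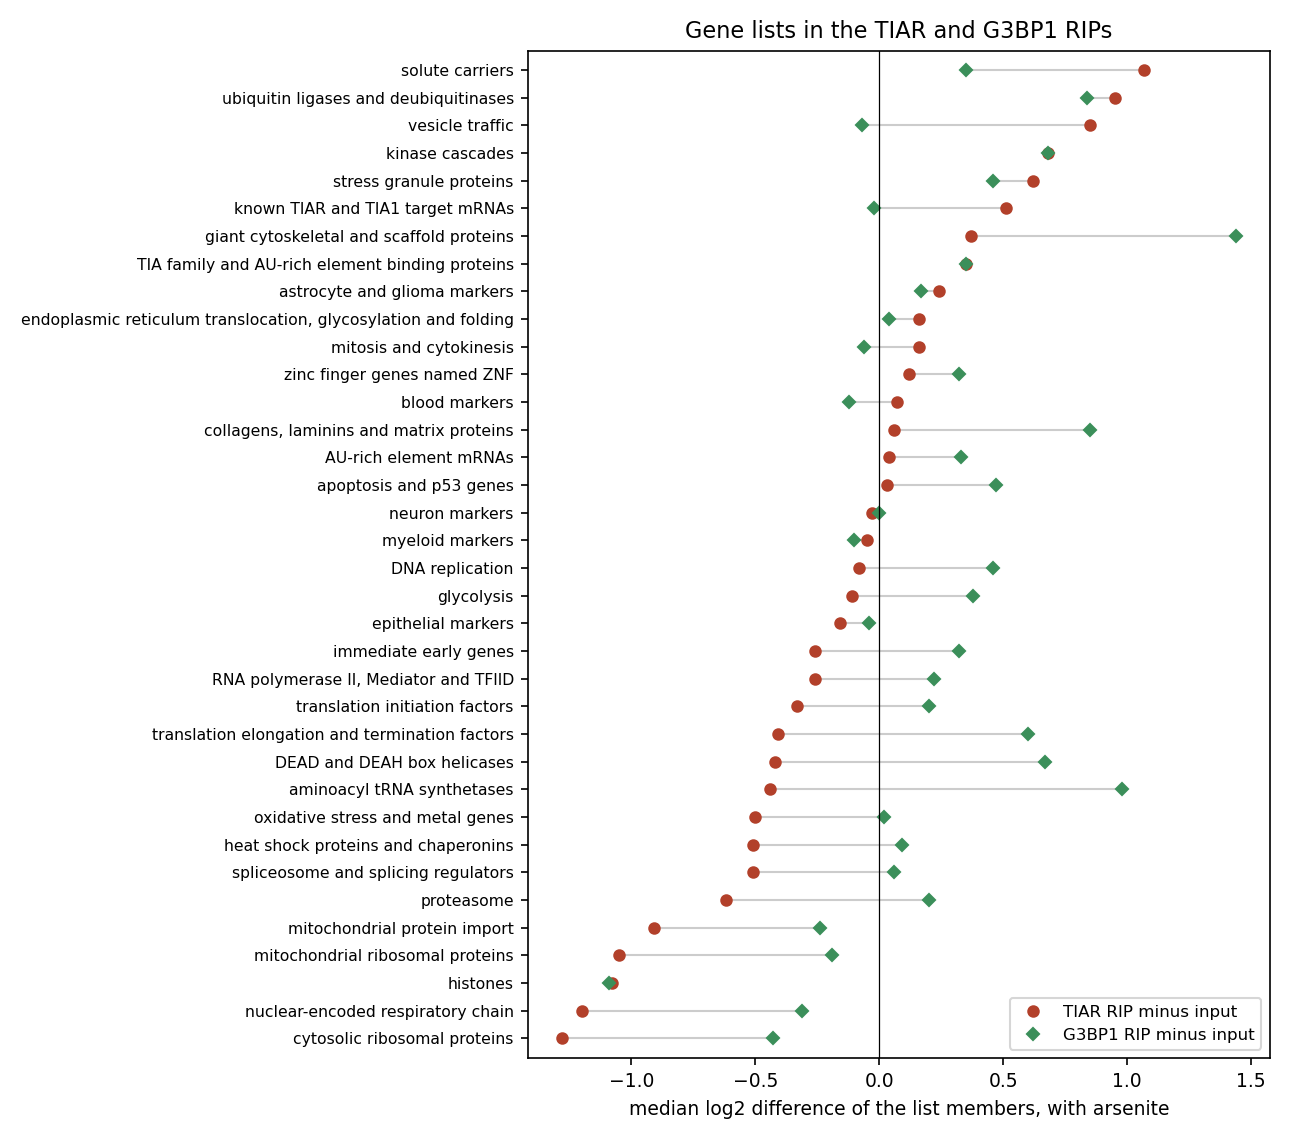
Median log2 difference from stressed input of each gene list with at least 6 measured members, for the TIAR RIP (red circles) and the G3BP1 RIP (green diamonds), both with arsenite and against the same 3 inputs. Histones lie at -1.08 and -1.09, vesicle traffic genes at 0.85 and -0.07, and the giant cytoskeletal and scaffold genes at 0.37 and 1.44.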

How the data were processed

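RNA from U251-MG cells was measured on 18 Affymetrix exon arrays in 6 groups of 3, and the groups were taken from the sample titles. The authors deposited log2 values of 22011 transcript clusters, made with RMA in Affymetrix Expression Console per the submitters' processing notes. The sources used here do not state the versions, the array's genome build or whether all arrays were normalized together. No read depth applies, so the number of arrays limits the precision. Of the transcript clusters 14432 (65.6%) have 1 gene symbol in the platform annotation, 2408 several and 5171 none. Each of 14232 genes is represented by its brightest transcript cluster.

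From these values, limma 3.58.1 in R 4.3.3 fitted the 6 group means over all 18 arrays, with moderated variances (12 residual and 2.61 prior degrees of freedom) and Benjamini-Hochberg adjustment over all transcript clusters. The fit was tested on simulated data with known changes. Genes named were the 20 largest called differences in each direction with groups that do not overlap and a higher group mean of at least 7, the 8 largest each way, with the same minimum, between the states and against G3BP1, in each gene list up to 4 members with the smallest p, and always TIAL1, TIA1, G3BP1, G3BP2, ECT2, AURKB and the known targets. The members and lists were chosen with earlier results of these data known. Start sequences are RefSeq's on GRCh38.p14. Alternatives changed the sample set, the variance model, array weights, scaling and filters on low signal, added a replicate block, and left out each array in turn. Arrays are the unit of replication. Standard errors and p-values rest on a spread pooled over all 6 groups, not on that of the compared groups alone. For TIAR RIP against input with arsenite, 9646 transcript clusters were called, and 8050 with the compared groups alone in the fit.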

Additional observations from a re-analysis of the deposited data

Results flagged for a closer look

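The arsenite enrichment differed from the enrichment without arsenite, by the interaction contrast of limma's fit, in 133 transcript clusters that were larger with arsenite and 11 that were smaller. Among the genes named for it, EXOSC9 (1.23), S100A13 (1.18), DNAJC7 (1.17), AATF (1.15), IMPDH2 (1.15), PACSIN3 (1.06), PSME1 (1.00) and DYNC1H1 (0.97) were larger on the log2 scale. ATF4 (-1.52), ANKRD49 (-1.30), PBDC1 (-0.87) and EGR1 (-0.77) were smaller. Input replicate 1 with arsenite enters every one of these values, and its part in them was measured only by leaving it out, which took the adjusted p of S100A13 to 0.0964 and that of IMPDH2 to 0.0616.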

How the results depend on the processing

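The count of transcript clusters that differed between the TIAR RIPs and input with arsenite was 9646, and 8207 to 9218 when 1 array was left out. Under the other settings it was 7691 to 10885. The count against G3BP1 was 9752, and 8768 to 9217 with 1 array left out. The count for the difference between the states, 144, moved most. It was 55 with a replicate block, 1472 with array weights, 219 and 312 with the lowest 25% and 50% of signals left out, 325 after cyclic loess and 239 after quantile normalization. The count reached 732 without the 2 arrays that stand apart (input replicate 1 with arsenite and G3BP1 RIP replicate 3 without it), an alternative chosen after seeing the data. Leaving out 1 array gave 15 to 124. Without TIAR RIP replicates 1, 2 and 3 with arsenite it was 33, 50 and 76, without input replicate 1 with arsenite 63, without the unstressed TIAR RIPs 50, 15 and 40 and without the unstressed inputs 20, 20 and 25. The cause was not tested. Deviations of arrays with the same replicate number correlated at -0.336, -0.277 and 0.105, so the numbers were not taken to pair the samples. For TIAR RIP against input with arsenite, 3206 values of 202 named genes were computed under alternatives. Of these 3188 kept their side of the threshold, among them 9 that changed sign without being called, 11 lost the call, 6 gained it, and PTPRC changed sign (-0.20, and 0.02 after quantile normalization). Genes outside that set and calls of the other comparisons that were lost stand beside those genes. Such losses are not given for FARSA, SARS1, QARS1, WARS1, RFTN2 and ZBTB7C-AS2 between the states. Nor are they given for TIA1, G3BP2 and the single known targets against G3BP1. Of 591 list medians 17 moved, and of 1182 list counts 66. The higher count of apoptosis genes was 5 without TIAR RIP replicate 3, in place of 8. With the lowest 50% of signals left out, the histone median was -1.46 and the astrocyte marker median 0.70. Signal limits what can be seen, since fewer genes were called where signals were low.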
